A study of Mus musculus with 7 samples.

Results

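A set of 9 genes of the angiotensin and endothelin systems was read across 7 mouse heart libraries. The members were taken by symbol, and all 9 listed symbols (Agt, Ace, Agtr1a, Agtr1b, Agtr2, Edn1, Ece1, Ednra and Ednrb) had a row among the 23420 gene rows of the table. RNA came from flash-frozen ventricle, although the tissue label reads whole heart, of untreated mice aged 3 to 6 weeks. The 4 control mice were Ctla4+/+;Pdcd1-/- and the 3 ICI-myocarditis mice were Ctla4+/-;Pdcd1-/-, so every animal was labelled as lacking Pdcd1, which encodes the checkpoint receptor PD-1, and the groups differed by 1 copy of Ctla4, which encodes the checkpoint receptor CTLA-4. ICI stands for immune checkpoint inhibitor, and the genotype models the myocarditis that such drugs can cause. No drug was given, and the control mice are PD-1-deficient rather than wild type.

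Angiotensinogen, the product of Agt, is cut by renin and then by angiotensin-converting enzyme (Ace) to give angiotensin II, which acts on AT1 receptors (Agtr1a and Agtr1b in mice) and on the AT2 receptor (Agtr2). Endothelin-1, made from the Edn1 precursor by endothelin-converting enzyme (Ece1), acts on the ETA receptor (Ednra) and the ETB receptor (Ednrb). Both peptides constrict vessels and promote growth and matrix production in the heart. ETB on endothelium also triggers vasodilator release and clears endothelin from the circulation.

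Values are normalized counts, which are reads per gene divided by a size factor for each library. Libraries held 20931730 to 32567278 reads in controls and 27948525 to 39037176 in ICI-myocarditis. Each log2 fold change sets ICI-myocarditis against control, was fitted with limma to log2(normalized count + 1), and has a p-value adjusted by Benjamini-Hochberg over 15258 tested genes and a threshold of 0.05. On the first principal component of those genes, which held 68.6% of the variance, control 2 scored 2.25 while the other controls scored from -96.7 to -61.2 and the ICI-myocarditis libraries from 58.9 to 105. Pdcd1 reads were present in all 7 libraries, at 2.5 to 244 normalized counts in controls and 1096 to 1481 in ICI-myocarditis, and counts per gene do not show whether the deleted part was read. Control 2 held the 244, and the other controls 2.5 to 9.07. The 8 T cell markers summed to 1739 in control 2, to 140 to 227 in the other controls and to 7175 to 11056 in ICI-myocarditis. Ctla4 was at 29.2 to 113 in controls and 251 to 373 in ICI-myocarditis, the group labelled with 1 copy (log2 change 2.40, adjusted p = 0.00849 by limma). T cells express Ctla4, all 8 T cell markers rose, their part in this difference was not tested, and its level does not check the genotype. Cardiomyocyte markers were abundant in every library (8 genes summing to at least 832632 normalized counts). The 4 atrial markers (Myl7, Myl4, Sln and Bmp10, the last at 0 throughout) summed to 52.2 to 124. Myl4 lay at 47.1 to 72.6 and Myl7 at 2.47 to 48.0, and control 3 was highest for the sum and for both genes. The 6 fat markers summed to 5.12 to 13.8 except in control 3, where they reached 166 with Cfd at 92.7 and Adipoq at 41.3.

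The stretches before the transcription starts of Ednrb, Ace and Edn1 are shown because Ednrb and Ace were the members whose groups did not overlap and Edn1 encodes the endothelin ligand. Each runs 5′ to 3′ for the 250 bases before a start annotated by RefSeq on GRCm38.p6, the build named in the submitters' processing notes. Ednrb lies on the minus strand (chr14:103843702-103843951), Ace on the plus strand (chr11:105967698-105967947) and Edn1 on the plus strand (chr13:42301226-42301475). The Ednrb stretch lies inside the annotated gene (chr14:103814615-103844508), before an inner start. The bases before the outer end of Ednrb were not searched. Capitals mark matches to 5 motifs searched on both strands. The gamma-activated site, bound by STAT factors, was searched as TTCNNNGAA, and the interferon-stimulated element by its usual repeat. The site bound by AP-1, a factor of growth and stress signalling, was searched as TGANTCA. The GC box, a common element of promoters without tissue restriction, was searched as GGGCGG. The last motif was the TATA box in its short form TATAAA.
Ednrb: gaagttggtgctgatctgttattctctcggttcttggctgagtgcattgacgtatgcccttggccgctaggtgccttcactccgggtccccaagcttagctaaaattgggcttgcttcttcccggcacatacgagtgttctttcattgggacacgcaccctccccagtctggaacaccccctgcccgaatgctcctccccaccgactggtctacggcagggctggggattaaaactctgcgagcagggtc
Ace: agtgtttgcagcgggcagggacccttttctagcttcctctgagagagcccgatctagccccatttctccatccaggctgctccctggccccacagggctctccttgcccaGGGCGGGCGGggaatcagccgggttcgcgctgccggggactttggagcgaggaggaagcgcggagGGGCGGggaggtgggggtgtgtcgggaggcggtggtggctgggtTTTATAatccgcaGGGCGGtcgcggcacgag
Edn1: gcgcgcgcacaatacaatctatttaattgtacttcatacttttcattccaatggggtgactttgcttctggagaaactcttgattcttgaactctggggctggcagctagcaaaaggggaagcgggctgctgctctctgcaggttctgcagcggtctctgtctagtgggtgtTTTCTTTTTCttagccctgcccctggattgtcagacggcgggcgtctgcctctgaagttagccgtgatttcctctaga
The Ace stretch held 4 GC boxes, of which 2 overlap, and a TATA match on the minus strand 25 bases before the start. The Edn1 stretch held an interferon-stimulated element match that ended 68 bases before the start, and the Ednrb stretch held none of the 5 motifs. Over 32536 distinct promoter stretches of the same length, 33.0% held a GC box, 12.3% a TATA match, 7.04% a gamma-activated site, 6.73% an AP-1 match and 2.98% an interferon-stimulated element. RefSeq promoters matched 8 of the 9 members, all but Agtr1a. A second annotated Ace start held none of the 5 motifs. The Agt stretch held a gamma-activated site match and a TATA match, and the Agtr1b stretch a TATA match. Of 4 annotated Ece1 starts, 1 held an interferon-stimulated element match that ended 62 bases before the start and a GC box. Another held 2 GC boxes, and the rest none of the motifs. The Agtr2 and Ednra stretches held none either. These are matches of letters and do not show binding.

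Ednrb was the member that passed the test, and it fell. In replicate order, the controls held 1677, 1449, 1933 and 1022 normalized counts of Ednrb, and the ICI-myocarditis hearts 554, 454 and 749.6. Every ICI-myocarditis heart lay below every control. The means were 1520.3 ± 386 (SD, n = 4) and 586 ± 150.2 (SD, n = 3), a 2.58-fold lower level and a log2 change of -1.37 (adjusted p = 0.00977 in limma, SE 0.265). Ednrb passed in all 17 alternative analyses run, with log2 fold changes from -1.74 to -1.20 (highest adjusted p 0.0440, limma without ICI-myocarditis 2). In the authors' deposited table its log2 fold change was -1.38 with an adjusted p of 9e-05.

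Ednra, the ETA receptor of smooth muscle and cardiomyocytes, had the smallest difference of the tested members. It lay at 1652, 994, 1257 and 1519 in controls and at 1318, 1124 and 1333 in ICI-myocarditis. The 3 ICI-myocarditis values fell inside the control range. Its log2 fold change was -0.09 (95% interval -0.57 to 0.40, limma adjusted p = 0.832), and the sign turned with scaling by total reads (0.07) and without control 1 (0.02).

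The balance of the endothelin receptors was read as the ratio of Ednrb to Ednra normalized counts in each library, without correction for length. It was 1.01, 1.46, 1.54 and 0.673 in controls and 0.420, 0.404 and 0.562 in ICI-myocarditis. All ICI-myocarditis hearts had a lower ratio than all controls, with control 4 nearest to them. The mean log2 ratio was lower by 2.43-fold (difference -1.28, exact two-sided permutation p = 0.0571, and 0.0571 adjusted over the 2 ratios computed), so this difference between the receptors did not pass. With 4 against 3 libraries this test cannot give a p below 0.0286.

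**Figure D1:**
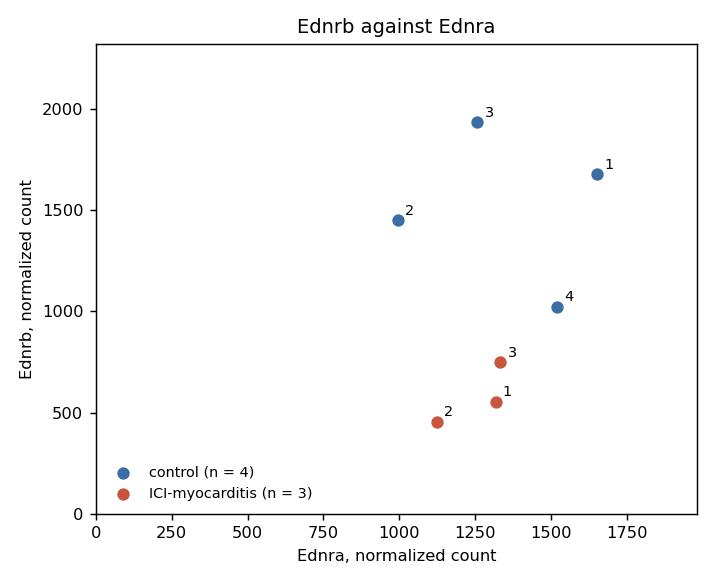
Normalized counts of Ednrb (vertical) against Ednra (horizontal) on linear axes from 0, with 1 point per library, numbered by replicate. The 3 ICI-myocarditis hearts lie at 454 to 749.6 of Ednrb, below all 4 controls, while their Ednra values lie inside the control range.

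**Figure D2:**
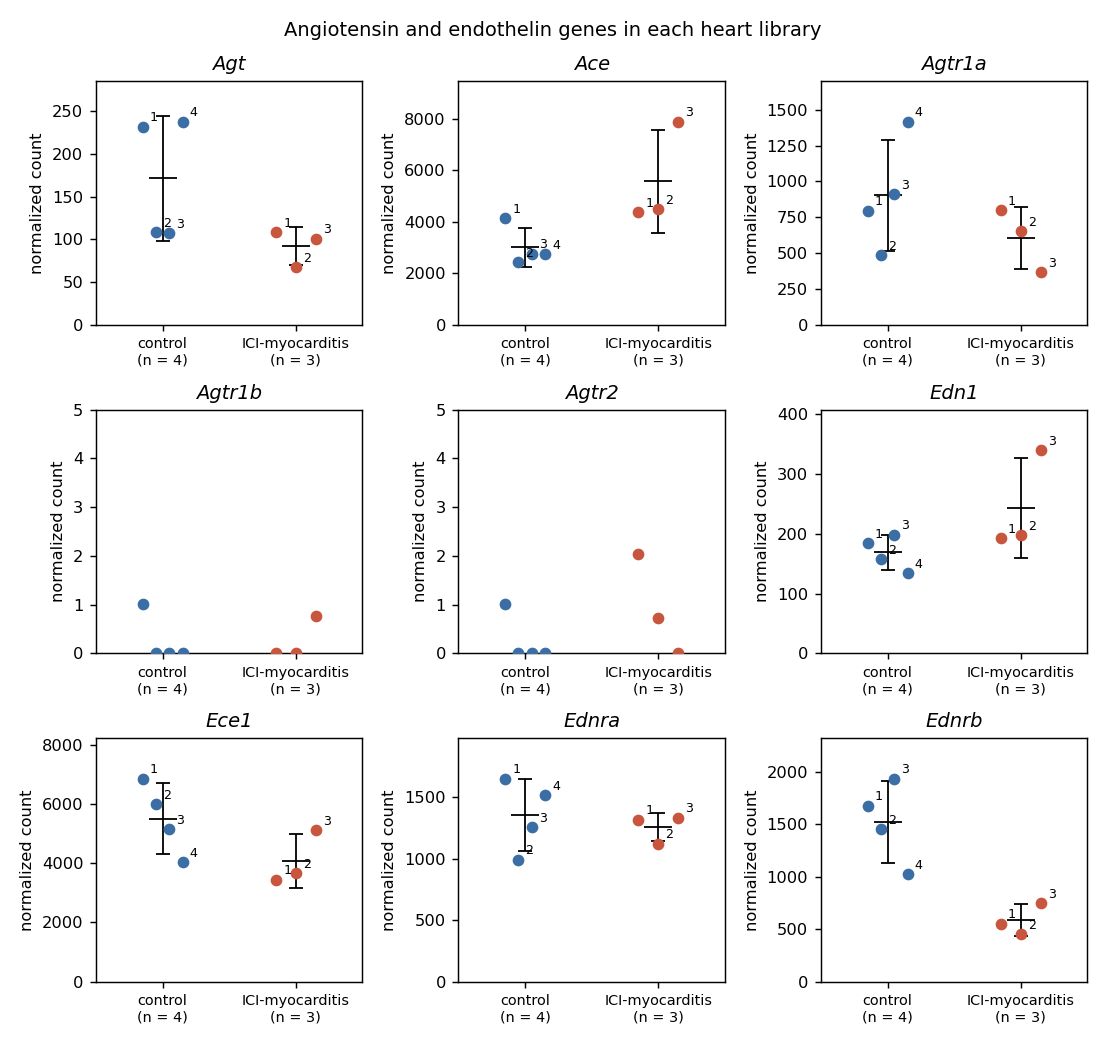
Normalized counts (vertical axes, linear from 0) of the 9 genes in the 4 control and 3 ICI-myocarditis libraries, with points numbered by replicate where reads allow and bars giving the mean and SD. Ednrb and Ace are the genes whose groups do not overlap, with Ednrb at 454 to 749.6 in ICI-myocarditis, and Agtr1b and Agtr2 stay at or below 2.05 normalized counts.

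Edn1, the endothelin-1 precursor gene, did not pass the test. Its normalized counts were 185, 158, 199 and 134 in controls and 192, 198 and 340.0 in ICI-myocarditis. ICI-myocarditis 3 was the highest library, and the other ICI-myocarditis values lay inside the control range. The log2 fold change was 0.49 (adjusted p = 0.277 in limma, SE 0.279), and it was 0.22 without ICI-myocarditis 3.

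Ece1, the metalloprotease that releases mature endothelin, had 6857, 5984, 5139 and 4037 normalized counts in controls and 3449, 3655 and 5122 in ICI-myocarditis. The groups overlapped because ICI-myocarditis 3 exceeded control 4. The log2 fold change was -0.43 (95% interval -1.0 to 0.14, limma adjusted p = 0.294).

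Ace, the enzyme that forms angiotensin II, lay at 4138, 2429, 2754 and 2740.0 normalized counts in controls and at 4364, 4486 and 7890.0 in ICI-myocarditis. Every ICI-myocarditis library was above every control, but control 1 came close to ICI-myocarditis 1 and ICI-myocarditis 3 stood well above the others. The means were 3015 ± 763 (SD, n = 4) and 5579.9 ± 2002 (SD, n = 3), with a log2 fold change of 0.86 (95% interval 0.23 to 1.5) that missed the threshold (limma adjusted p = 0.0706). It passed in 3 of 17 alternatives, namely DESeq2 (adjusted p = 0.0239), limma-voom with quality weights (adjusted p = 0.0366) and limma after scaling by total reads (adjusted p = 0.0462). The authors' deposited table gave Ace a log2 fold change of 0.89 and an adjusted p of 0.0280. Without ICI-myocarditis 3 the log2 fold change was 0.58 (limma adjusted p = 0.274).

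Agt, the substrate of the angiotensin cascade, had 232, 109, 107 and 238 normalized counts in controls and 108, 67.4 and 101 in ICI-myocarditis. Controls 1 and 4 were high, and controls 2 and 3 sat beside the ICI-myocarditis hearts. Agt had a log2 change of -0.81 (95% interval -1.67 to 0.05, limma adjusted p = 0.189).

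Agtr1a carried nearly all AT1 receptor reads. It lay at 797, 487, 911 and 1418 normalized counts in controls and at 798, 652 and 367 in ICI-myocarditis. The groups overlapped, with control 4 highest and ICI-myocarditis 3 lowest. Its log2 fold change was -0.55 (95% interval -1.40 to 0.31, limma adjusted p = 0.375). Agtr1b received 2 reads and Agtr2 received 4 reads over all 7 libraries, so neither was tested. Agtr1a and Agtr1b are close paralogs, and how reads matching both were counted is not given in the sources used here.

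Of the 9 members, 7 passed the filter, which asked for 10 or more normalized counts in 3 or more libraries. Of these 7, 1 passed the test, with 0 higher and 1 lower, where 15.7% of all tested genes passed (11.7% higher and 4.00% lower). Groups did not overlap for 2 of the 7, Ednrb and Ace, against 28.6% of all tested genes. With DESeq2 and with limma-voom 2 of the 7 passed, Ednrb and Ace, where 22.6% and 26.2% of all genes did, and the same 2 passed after scaling by total reads (13.0%) and in the authors' deposited table (20.2%). These counts are near the background and say nothing particular to the members. Their median log2 fold change was -0.43, beside -0.02 over all tested genes.

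Levels were compared between the 7 tested members per kilobase of exon (GENCODE M21), leaving aside Agtr1b and Agtr2, which lay below 1 per kb. In controls Ece1 had the highest mean, 1039 normalized counts per kb (762 to 1294), followed by Ace with 570.3 (459 to 783). Ednrb with 356 (239.6 to 453), Agtr1a with 324 (175 to 509) and Ednra with 248 (182 to 302) overlapped one another. Agt with 90.6 (56.7 to 126) and Edn1 with 78.9 (62.6 to 92.9) formed the lowest pair of the 7 and overlapped too.

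In ICI-myocarditis the order differed. Ace had the highest mean, 1055 normalized counts per kb (825 to 1492), and it lay above Ece1 (769, 651 to 966) in 3 of 3 libraries, against 0 of 4 controls. Ednrb had 137 per kb (107 to 176) and lay below Ednra (229.8, 205 to 243) in 3 of 3, whereas it lay above Ednra in 3 of 4 controls. Agtr1a had 217 (132 to 286), overlapping both receptors. Edn1 with 114 (89.9 to 159) lay above Agt with 48.8 (35.6 to 57.4) in 3 of 3 libraries, against 2 of 4 controls. Of the other pairs compared, Ednrb lay above Edn1 in 4 of 4 controls and 3 of 3 ICI-myocarditis libraries. Agtr1a lay above Ednra in 2 of 4 and 2 of 3, and Ednrb above Agtr1a in 3 of 4 and 1 of 3. These orders are descriptions that were not tested, and they rest on annotated exon lengths rather than on the transcripts present.

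**Figure D3:**
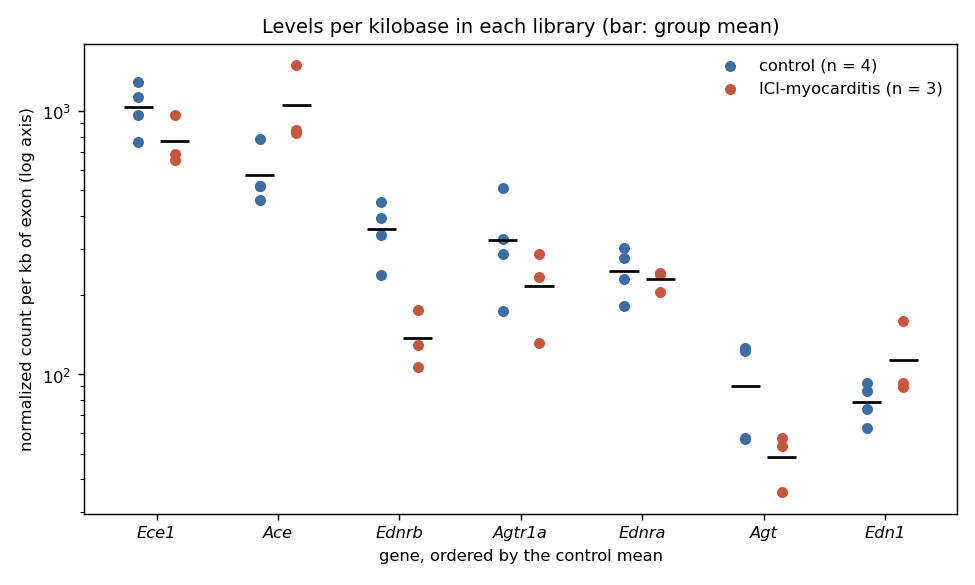
Normalized counts per kb of exon (log axis) for the 7 tested members, ordered by the control mean, with 1 point per library (4 control, 3 ICI-myocarditis) and a bar at each group mean. Compared within each library, Ace exceeds Ece1 in ICI-myocarditis and stays below it in controls, while the ranges of Ace and Ece1 overlap in both groups. The mean of Ednrb drops from 356 to 137 per kb.

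Several enzymes that make or degrade angiotensin peptides passed the test. Of 18 other angiotensin genes, 14 were tested, 2 rose, 5 fell and 7 did not pass, where 11.7% of all tested genes rose and 4.00% fell, with a median log2 fold change of -0.55. Ren1 and Ren2, the renin genes, and Cyp11b2, the aldosterone synthase gene, were listed at 0 in all 7 libraries, and Mrgprd had 1 read. Renin is made mainly in the kidney.

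Peptidases on the cell surface split by direction. Mme, or neprilysin, which degrades angiotensin I, natriuretic peptides and endothelin, fell from a mean of 434.6 ± 164 (SD, here and below with n = 4 controls) to 61.5 ± 38.2 (n = 3) normalized counts (log2 change -2.94, adjusted p = 0.00624 by limma). Enpep, the aminopeptidase that trims angiotensin II to angiotensin III, fell from 728 ± 173 to 324 ± 52.0 (log2 change -1.15, adjusted p = 0.0103 by limma). The summed endothelial and mural markers were lower too, as given below, and the part of those cells in the Mme and Enpep results was not tested. Anpep, the aminopeptidase acting on angiotensin III, rose in every ICI-myocarditis library, which lay at 1395, 2304 and 4418 against 532 to 912 in controls (log2 change 1.76, adjusted p = 0.0125 by limma). Anpep is also abundant on myeloid cells, whose markers moved with it: 7 of 8 macrophage markers rose, summing to 11726 to 16096 normalized counts in controls and 46246 to 69641 in ICI-myocarditis, and their part in this result was not tested.

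Atp6ap2, the prorenin receptor and an accessory subunit of the vacuolar proton pump, rose from a mean of 752 ± 116 to 1607 ± 221 normalized counts (log2 change 1.10, adjusted p = 0.00795 by limma). Nr3c2, the mineralocorticoid receptor, fell from 1145 ± 169 to 649.6 ± 207 (log2 change -0.86, adjusted p = 0.0494 by limma), a call made in 5 of 17 alternatives and lost without each single library except ICI-myocarditis 2 (highest adjusted p 0.192). Mcpt4, a mast cell chymase, fell from 41.4 ± 8.82 to 14.3 ± 8.59 (log2 change -1.60, adjusted p = 0.0476 by limma), a call made in 6 of 16 alternatives and lost without each single library except control 2 and ICI-myocarditis 1 (highest adjusted p 0.170). Among the 6 mast cell markers, which include Mcpt4, Cpa3 fell by 1.61 on the log2 scale, Cma1, an angiotensin-forming chymase, was at -0.84 without passing (limma adjusted p = 0.239), and Tpsb2 was at -0.75 (limma adjusted p = 0.260). Ms4a2, with 5 reads in all 7 libraries, was too low to test. Hdc, which other myeloid cells also express, rose by 1.55, and the part of these cells in the Mcpt4 result was not tested.

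**Figure D4:**
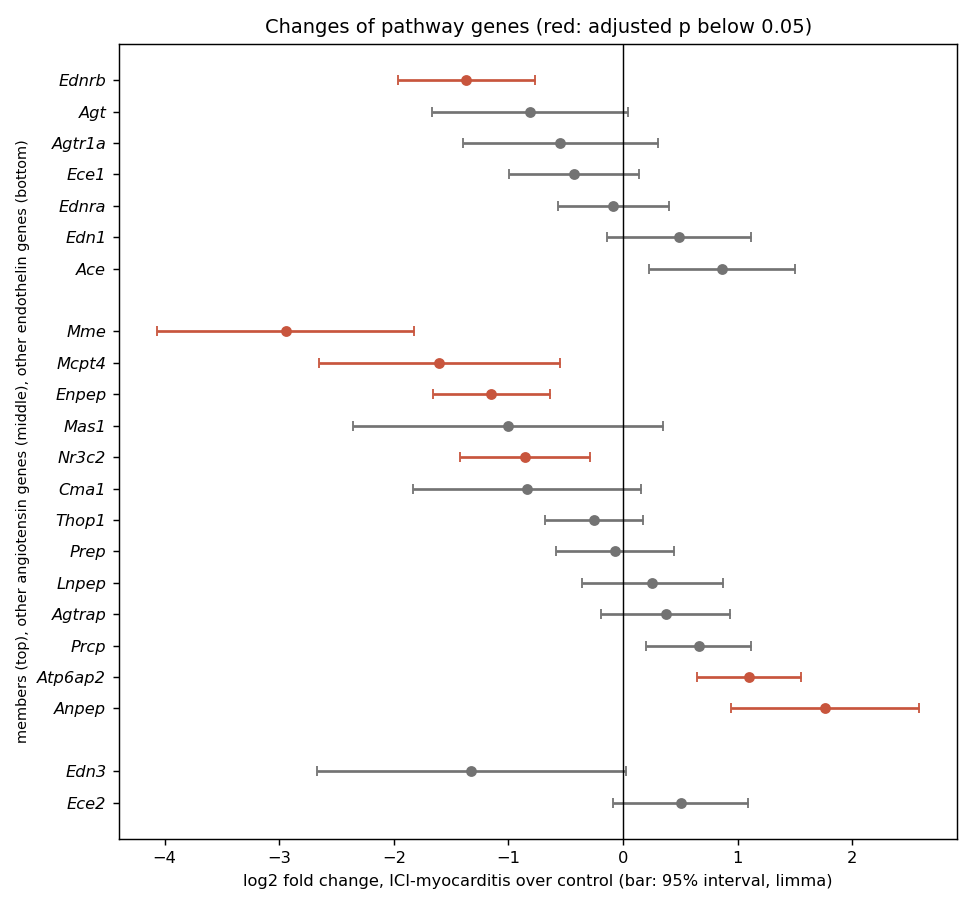
Log2 fold changes of ICI-myocarditis over control (points) with 95% intervals from limma (bars) for the 7 tested members, 13 of the 14 other tested angiotensin genes and 2 other endothelin genes, in red where the adjusted p is below 0.05. Ednrb at -1.37 is the red point among the members, and Mme (-2.94) and Anpep (1.76) mark the ends of the angiotensin genes.

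Of 4 other endothelin genes, Edn2 and Kel were too low to test, with 7 and 9 reads in all. Edn3, which encodes the endothelin-3 precursor, had 29.2, 8.63, 33.5 and 57.6 normalized counts in controls and 10.2, 8.70 and 11.5 in ICI-myocarditis. Control 2 was the lowest of all 7 libraries and each other control exceeded all ICI-myocarditis values. For Edn3 this gave -1.32 on the log2 scale (limma adjusted p = 0.173), and without control 2 it was -1.83 (limma adjusted p = 0.0134). The authors' deposited table gave Edn3 an adjusted p of 0.0405. Ece2, a second converting enzyme, was at 0.50 (limma adjusted p = 0.234). Limma called 0 of these 2 genes, with 0 at an unadjusted p under 0.05, edgeR called 0, and DESeq2 and limma-voom each called Edn3.

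Signalling downstream of these receptors runs through Gq and G12/13 proteins, phospholipase C-beta and protein kinase C, and is ended by arrestins and RGS proteins. All 21 genes of this list were tested, of which 3 rose, 3 fell and 15 did not pass, with a median log2 fold change of 0.03. The test called 11.7% of all tested genes higher and 4.00% lower, so the share that rose is near the background. The share that fell, 3 of 21, is above it, rests on few genes and was not tested. Gna13, a G12/13 alpha subunit, rose from a mean of 1820.0 ± 227 to 4473 ± 1485 normalized counts (log2 change 1.25, adjusted p = 0.00945 by limma). Arrb2 (2.13) and Prkcd (1.48) rose as well (limma adjusted p = 0.00641 and 0.0166), and Prkcd lost its call without control 1 (0.0526), without control 3 (0.0565) and without ICI-myocarditis 3 (0.0685). Gnaq, the alpha subunit of Gq, was at 0.03 (limma adjusted p = 0.945). Both Arrb2 and Prkcd are abundant in leukocytes, whose markers rose as given above for macrophages, and all 8 T cell markers rose too. Their part in these results was not tested.

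Rgs5 and Rgs4, which switch off Gq and Gi signalling, fell. Rgs5 lay at 18352 to 24158 normalized counts in controls and at 9366, 7738 and 5998 in ICI-myocarditis (log2 change -1.48, adjusted p = 0.00649 by limma). Rgs4 went from 922 ± 199.6 to 426 ± 41.2 (log2 change -1.09, adjusted p = 0.00969 by limma). Plcb4 fell by 1.02 on the log2 scale (limma adjusted p = 0.0187), a call made in 12 of 17 alternatives and lost without control 3 and without each ICI-myocarditis library (highest adjusted p 0.0984, with scaling by total reads). Rgs2 was at 0.27 (limma adjusted p = 0.744), with ICI-myocarditis 1 at 3560 above every control and ICI-myocarditis 2 and 3 at 1624 and 1081 inside the control range, and the sign turned without ICI-myocarditis 1 (-0.21). Rgs5 is a pericyte gene. Of the 9 mural markers, 4 fell (Kcnj8, Abcc9, Myh11 and Cnn1) and 5 did not pass, where 4.00% of all tested genes fell. Among those 5, Cspg4 was at 0.10 and Pdgfrb at -0.45 (limma adjusted p = 0.785 and 0.328). The part of mural cells in the Rgs5 result was not tested.

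Genes known to respond to angiotensin II or endothelin-1 in cultured heart or vessel cells were read as a list of 14. Of 13 tested, 4 rose, 0 fell and 9 did not pass, where 11.7% of all tested genes rose. The list's median was 1.12 on the log2 scale, beside -0.02 for all tested genes. Ccn2 (Ctgf in the table), or connective tissue growth factor, rose from a mean of 2582 ± 430.1 to 12413 ± 7887 normalized counts (log2 change 2.10, adjusted p = 0.00757 by limma), with ICI-myocarditis 3 highest at 21370.1. Spp1, or osteopontin, rose by 4.58, the chemokine gene Ccl2 by 3.74 and the adhesion molecule gene Vcam1 by 2.07 (limma adjusted p = 0.00340, 0.0182 and 0.00896). The Ccl2 call was made in 15 of 17 alternatives and was lost without ICI-myocarditis 2 (limma adjusted p = 0.0602) and without ICI-myocarditis 3 (0.0769). Its log2 change was 3.06 without control 1 and 4.43 without control 2. Tgfb1 was at 1.01 and Acta1 at -0.09 without passing (limma adjusted p = 0.0585 and 0.917). Many other signals induce these genes, the macrophage and T cell markers moved with them, and the part of either was not tested.

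Among 11 vasodilator genes, 10 were tested, 1 rose and 1 fell, with a median log2 fold change of -0.24. This count is near the 15.7% called over all tested genes. Ptgis, prostacyclin synthase, rose from a mean of 576 ± 83.1 to 1336 ± 345 normalized counts (log2 change 1.19, adjusted p = 0.00827 by limma). Gucy1b1 (Gucy1b3 in the table), a subunit of the nitric oxide receptor guanylate cyclase, fell by 0.80 on the log2 scale (limma adjusted p = 0.0305), a call made in 10 of 17 alternatives and lost without control 1, control 3 and each ICI-myocarditis library (highest adjusted p 0.156, with scaling by total reads). Nos3, the endothelial nitric oxide synthase, was at -0.82 without passing (limma adjusted p = 0.144).

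In whole tissue, fewer cells of a type and less RNA per cell cannot be told apart, so the members were set beside markers of 4 heart cell types. Of 10 endothelial markers, 5 fell (Kdr, Tek, Emcn, Erg and Cldn5), where 4.00% of all tested genes fell. The other 5 did not pass: Pecam1, Cdh5, Tie1 and Egfl7 were below 0, and Vwf was at 0.16 (limma adjusted p = 0.761). Summed over the 10, the level was 36968 to 90801 normalized counts in controls and 30413 to 36844 in ICI-myocarditis. Mural markers summed to 41256 to 63325 and 22972 to 31466. Fibroblast markers summed to 39140.0 to 56546 and 69646 to 130299, with Col1a1 and Col1a2 higher and the other 6 not past the test. Of 8 cardiomyocyte markers 0 passed limma, 2 had an unadjusted p under 0.05, and all 8 were below 0.

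For each tested member, the mean log2 level of each marker list was subtracted in each library. Relative to the endothelial markers, Ednrb differed by -0.43 between the groups (exact permutation p = 0.200, adjusted over 28 pairs 0.295), and the groups overlapped. Relative to the mural markers the Ednrb difference was -0.48 (exact permutation p = 0.229, adjusted 0.320), again with overlap. Relative to the cardiomyocyte markers it was -0.43 (exact permutation p = 0.514, adjusted 0.626), with overlap too, so the smaller difference was not particular to the vascular lists. Against the fibroblast markers it was -2.07, with groups apart (exact permutation p = 0.0286, adjusted 0.100).

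Ace and Edn1 were higher relative to the endothelial, the mural and the cardiomyocyte markers in every ICI-myocarditis library than in any control. Those lists themselves had mean log2 differences of -0.93, -0.89 and -0.93, and the fibroblast list 0.70. Subtracting lists that fell by like amounts raises each gene by like amounts, so these comparisons are not separate results. Edn1 alone overlapped between the groups. Ace relative to endothelial markers was higher by 1.80 in ICI-myocarditis, with groups apart (exact permutation p = 0.0286, adjusted 0.100). Edn1 relative to the same markers was higher by 1.42, with groups apart (exact permutation p = 0.0286, adjusted 0.100). Relative to the mural markers Ace was higher by 1.75 and Edn1 by 1.38, and relative to the cardiomyocyte markers by 1.80 and 1.42. Relative to the fibroblast markers their differences were 0.16 and -0.21, and the groups overlapped. In 11 of 28 pairs the groups did not overlap. The share of all tested genes apart after the same subtraction is not given here, so this count has no background. The pairs also share the marker lists, whose own levels differed. No pair had an adjusted p below 0.05, with 8 at an unadjusted exact permutation p of 0.0286. That is the lowest p this test can give, and passing over 28 pairs would need many more pairs at it. No conclusion is therefore drawn from the lack of a passing pair.

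**Figure D5:**
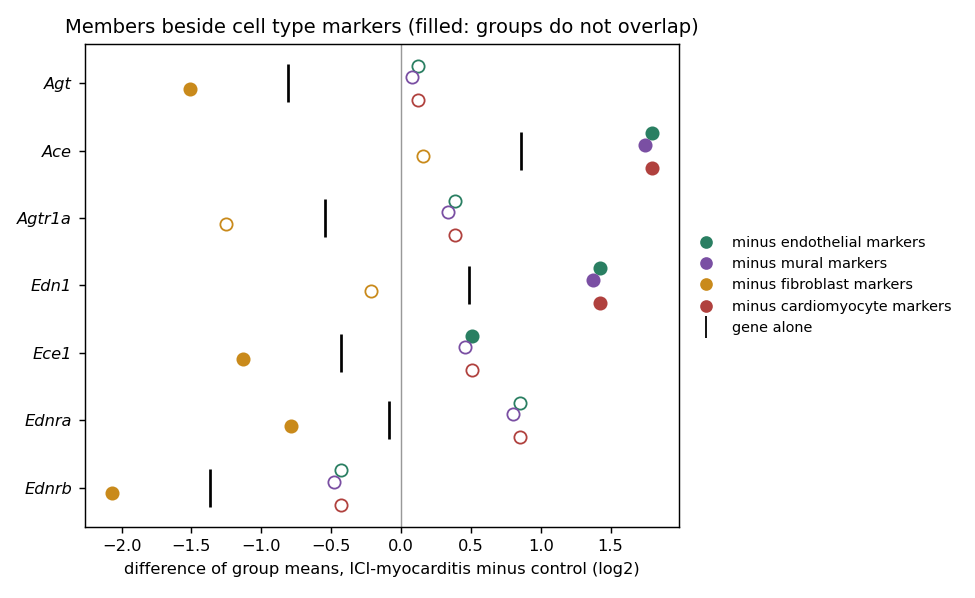
Difference of group means in log2 units (ICI-myocarditis minus control) for each tested member alone (black tick) and after subtracting the mean log2 level of endothelial, mural, fibroblast or cardiomyocyte markers (circles, filled where the groups do not overlap). Ednrb moves from -1.37 alone to -0.43 beside endothelial and beside cardiomyocyte markers, and Ace from 0.86 to 1.80.

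The genes whose levels followed each member most closely were picked by Pearson's r over the 7 libraries, which share the group difference and the depth, so r is a description only. Ednrb was nearest to Ppl (r = 0.981) and Mamdc2 (r = 0.973), and Ace to Rhou (r = 0.988) and Igfbp4 (r = 0.986). Edn1 was nearest to Ckmt1 (r = 0.982) and Cpd (r = 0.976), and Ece1 to Rhoj (r = 0.985) and Grik3 (r = 0.983). Agtr1a was nearest to Gcsh (r = 0.998) and Atp5c1 (r = 0.997), Ednra to Hspa8 (r = 0.985) and Zfp580 (r = 0.941), and Agt to Pex5 and Elf2 (both r = 0.949). Among the members themselves, r was highest for Ace with Edn1 (0.870), Ednrb with Ece1 (0.805) and Agt with Ednra (0.784), and lowest for Agtr1a with Edn1 (-0.728).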

How the data were processed

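Total RNA from 7 mouse hearts was sequenced after a stranded library kit, per the labels' protocols. STAR 2.7.3 and the build GRCm38 are named in the submitters' processing notes, and the counting program, annotation and use of strand are not given in the sources used here. The deposited values are a signal: the authors divided each library's read counts by its own size factor, as the values show, since all were whole multiples of a step within 0.01 reads, a weaker sign for control 1, whose step is near 1. The deposited table also gives a mean, a log2 fold change, its standard error and test statistic (scores), and p-values from the authors' comparison.

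Tests used limma 3.58.1 (R 4.3.3) with trend and robust variance on log2(normalized count + 1), keeping genes that reached 10 normalized counts in 3 or more libraries. edgeR 4.0.16 on recovered reads (2076 genes called), DESeq2 1.42.0, limma-voom, pseudocounts, filters, scalings, a replicate block and leaving out each library were alternatives. The log2(value + 1) scale understates changes of low genes. Members, lists and rules were chosen with earlier results of these data known. Named were all members, called list genes, Ren1, Mme, Edn3, Rgs2, Rgs4 and Rgs5, and the 2 genes nearest each member. Some list genes, and 1 of the 2 ratios tested, are counted but not reported here. Other list genes named without passing and the single markers were chosen after their values were seen. Ace, Edn1 and Ednra overlap annotated genes on the other strand that have no row in the table. Tests were checked on simulated counts. The 27 rows with names turned into dates are not list genes. The series' design text counts the samples as mice, and litters are not given.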

Additional observations from a re-analysis of the deposited data

Results flagged for a closer look

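Among 30 results read in the 4 controls on the log2(normalized count + 1) scale, 3 had a library set apart from the others by Dixon's test at the 95% level, which chance alone passes about 1 time in 20. None was a member. For Enpep, control 3 was high (986 against 622 to 654), with a gap of 0.890 of the range. For Nr3c2, control 1 was low (894 against 1203 to 1252), with a gap of 0.880. For Spp1, control 2 was high (40.7 against 6.26 to 8.07), with a gap of 0.873. The Enpep and Spp1 calls were made in all 17 alternatives, among them those without these libraries, whereas Nr3c2 without control 1 was not called.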

How the results depend on the processing

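Ednrb was called in all 17 alternatives. The count of members called was 1 in each alternative except DESeq2, limma-voom and scaling by total reads, where it was 2 because Ace passed; without each library in turn it was 1. Scaling by total reads moved the median of all genes by 0.16 on the log2 scale. Agt, Agtr1a, Edn1, Ednra and Ece1 passed in none of the 17. Ednra changed sign with scaling by total reads (0.075) and without control 1 (0.019), with a range of -0.23 to 0.019 without single libraries. Rgs2 changed sign without ICI-myocarditis 1 (-0.21), with a range of -0.21 to 0.65. Over all genes 2397 were called, 4003 with limma-voom, and 986 (without ICI-myocarditis 3) to 3340.0 (without control 2) when single libraries were left out, with 1298 without control 3, 1396 without ICI-myocarditis 2 and 1508 without control 1; fewer samples enter these fits. Of 60 tested pathway genes 19 were called, 32 with limma-voom, where the cause was not tested, and 13 to 22 without single libraries. The alternatives for pathway genes and marker lists were chosen after seeing the data. The Ednrb to Ednra difference ranged from -1.52 to -1.13 without single libraries, where 6 libraries allow no p below 0.05 in these permutation tests. Pairs of member and marker list with groups apart numbered 11 to 16 without single libraries. Smaller groups are apart more easily and this count has no background, so nothing is concluded from it. Replicate numbers in the labels are not known to pair the mice. Deviations of same-numbered libraries correlated at -0.271, -0.206 and -0.0784, and no library pair of 1 number was the closest. Such correlations, taken around group means of few libraries, cannot show whether mice shared a litter or batch. With the replicate block 1780.0 genes, 1 member (Ednrb, log2 fold change -1.54) and 20 pathway genes were called. Replicate 4 occurs only in controls, so the block gave the same log2 fold changes as leaving out control 4, with other p-values. These 2 alternatives are therefore not separate. At 2 and 4 reads in all, Agtr1b and Agtr2 are limited by depth.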
